A study of Mus musculus with 12 samples.

Results

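*Esm1*, *Plvap*, *Emcn*, *Mmrn2* and *Ephb4* are 5 genes of blood vessel endothelium, followed here array by array in 2 genotypes of mouse Sonic hedgehog medulloblastoma (Shh-MB) and in the progenitor cells from which that tumor arises. Every probe annotated to one of the 5 symbols was taken, which gave 7 of the 45281 probes on the array and 5 of the 19057 genes with a probe of their own. The genes were chosen by their measured signal in these tumors, since earlier results of the same arrays had shown them higher in one tumor genotype than in the other. The difference between the tumor genotypes is therefore given as a description, with no test.

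The 3 groups held 4 arrays each. NdpKO;Ptch+/- MBs were heterozygous for a *Ptch* mutation and carried an *Ndp* locus broken by a cassette that contains *lacZ*, and by the breeding scheme they came only from Ndp-/y males. Ptch+/- MBs carried the same *Ptch* mutation with *Ndp* intact, and control mice could be of either sex. Wild-type GNPs, the granule neuron progenitors of the outer cerebellum, came from P6 pups (postnatal day 6) and were enriched on a percoll gradient and by pre-plating, whereas MB RNA was extracted from tumor tissue. The sample records give a mixed strain background for NdpKO;Ptch+/- MBs and C57Bl/6 for both other groups, so in these records strain and genotype cannot be told apart, although by the study's methods compound mutants were set against controls of their own breeding cohort. The *Ndp* mutation is carried by all cells of the compound mutants, and no age is given for the mice whose tumors were put on these arrays. The study's legends count its GNP arrays as animals, while nothing states that the MB replicates came from separate animals, so the p-values below measure the spread between these samples.

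Norrin, the product of *Ndp*, is a secreted ligand that binds Frizzled4 on endothelial cells and signals through β-catenin, and in the retina and cerebellum it is known for guiding vessel growth and for the blood-brain barrier. The 5 genes stand for different sides of endothelial biology. *Esm1* encodes endocan, a proteoglycan that endothelial tip cells secrete and that binds VEGF-A in the matrix. *Plvap* encodes the protein of the diaphragms that span fenestrae and caveolae, and it is lost from brain capillaries as the barrier matures. *Emcn* encodes endomucin, a sialomucin on the surface of capillary and venous endothelium. *Mmrn2* encodes multimerin 2, a glycoprotein of the EMILIN family in the endothelial matrix. *Ephb4* encodes the receptor for ephrin-B2 that marks venous endothelium.

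The promoters are shown because the 5 genes were high in the same tumors, and endothelial genes are commonly controlled by ETS factors, while Norrin acts through TCF/LEF factors. RefSeq promoters of build GRCm38.p6 were matched by symbol for 3 of the 5 genes, and *Plvap* and *Mmrn2* were not matched. Each sequence is the 250 bases that precede the annotated start, 5′ to 3′, and capitals mark the ETS motif GGAAG and the TCF/LEF core CTTTGA on either strand. The shorter ETS core GGAA was not marked.
Esm1, chr13:113209409-113209658, + strand: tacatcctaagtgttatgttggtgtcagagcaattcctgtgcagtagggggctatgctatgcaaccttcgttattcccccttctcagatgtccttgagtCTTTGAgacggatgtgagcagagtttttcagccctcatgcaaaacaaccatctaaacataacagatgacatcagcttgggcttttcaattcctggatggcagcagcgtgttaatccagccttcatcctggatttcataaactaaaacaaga
Emcn, chr3:137340828-137341077, + strand: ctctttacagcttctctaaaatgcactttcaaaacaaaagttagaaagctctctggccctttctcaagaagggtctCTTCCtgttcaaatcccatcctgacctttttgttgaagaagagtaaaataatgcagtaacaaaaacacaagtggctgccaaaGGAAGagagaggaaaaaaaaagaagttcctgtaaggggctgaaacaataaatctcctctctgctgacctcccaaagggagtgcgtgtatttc
Ephb4, chr5:137349859-137350108, + strand: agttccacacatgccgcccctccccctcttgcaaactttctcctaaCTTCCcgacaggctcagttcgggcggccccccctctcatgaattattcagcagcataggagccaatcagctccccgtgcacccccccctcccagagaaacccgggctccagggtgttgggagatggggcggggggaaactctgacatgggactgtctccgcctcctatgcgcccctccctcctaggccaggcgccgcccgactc
The *Esm1* window held 1 TCF/LEF core, 151 bases before the start, and no GGAAG. The *Emcn* window held 2 matches to GGAAG, 174 and 92 bases before the start, and 1 SOX core ACAAT at 49 bases. The *Ephb4* window held 1 match to GGAAG at 204 bases and 4 Sp1 boxes GGGCGG, and its GC content was 64.0%, against 44.0% for *Esm1* and 40.8% for *Emcn*. The GATA core GATAA and the TATA box TATAAA were in none of the 3 windows. Of the 32851 promoters of the table, with a median GC content of 52.4%, 64.1% held GGAAG, 13.8% a TCF/LEF core, 27.7% a SOX core and 32.7% an Sp1 box on either strand. None of the 6 motifs searched was found in all 3 windows. The shorter ETS core GGAA was not among them, and read on either strand it stands in all 3 windows.

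The values are normalized log2 signals, in which 1 unit is a 2-fold difference. The median of every array was 4.15, since the authors normalized quantiles across arrays, and 62.1% of probes stayed under 4.5 on all 12 arrays. A signal under 4.5 was read as not above background, and a fold against a group that lies wholly under this limit is given only as a bound. Over all probes 1.38% passed between the tumor genotypes, 17.3% between Ptch+/- MBs and GNPs, and 12.4% between NdpKO;Ptch+/- MBs and GNPs, at an adjusted p under 0.05 in limma. Replicates within a group correlated with r of 0.984 to 0.996 over all probes. Among 13 genes of the granule lineage and hedgehog signalling, *Zic1*, *Sfrp1* and *Ccnd1* lay above 12 in the mean of every group, while the probes of *Atoh1*, *Gli1* and *Mycn* were under the limit on all arrays. Of these 13 genes 1 fell in NdpKO;Ptch+/- MBs, the cyclin *Ccnd2* (-0.85, adjusted p = 0.0280, passed in 5 of the 12 fits that left out an array), and none rose, against 1.26% and 0.808% of all genes. Their median difference was -0.15, and at an unadjusted p under 0.05, where 7.91% of all genes were lower and 8.52% higher, 4 of them were lower and none higher. The *Ndp* probe was at background in all groups (means 4.14, 4.17 and 4.16), so the *Ndp* genotype of single arrays could not be checked.

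*Esm1* was at background in GNPs and in most Ptch+/- MBs and bright in every NdpKO;Ptch+/- MB. Its probe ILMN_1257574 gave log2 signals of 8.74, 9.85, 9.09 and 8.57 in NdpKO;Ptch+/- MBs. The Ptch+/- MBs gave 6.97, 4.22, 4.16 and 4.18, and the GNPs 4.16, 4.19, 4.17 and 4.14. Thus 3 of 4 Ptch+/- MBs lay at the background level of the progenitors, replicate 1 of that genotype lay between the tumor groups, and no tumors of the 2 genotypes overlapped. The group means were 9.06 ± 0.57 (SD, n = 4), 4.88 ± 1.39 and 4.17 ± 0.02, and the difference between tumor genotypes was 4.18 (standard error 0.59), the third largest of all probes. Without Ptch+/- MB replicate 1, this difference was 4.88, and all remaining Ptch+/- MBs were under the limit, which puts NdpKO;Ptch+/- MBs at least 23.6-fold higher. The same bound of at least 23.6-fold held against GNPs.

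*Plvap* followed the same order of group means, with more spread among NdpKO;Ptch+/- MBs. Probe ILMN_2984110 gave 4.80, 7.20, 8.08 and 7.84 in NdpKO;Ptch+/- MBs and 4.18, 4.20, 5.18 and 4.25 in Ptch+/- MBs. In GNPs it gave 4.27, 4.35, 4.16 and 4.30, all under the limit. The tumor genotypes overlapped by 1 pair of arrays, because Ptch+/- MB replicate 3 was above NdpKO;Ptch+/- MB replicate 1. The means were 6.98 ± 1.498, 4.45 ± 0.48 and 4.27 ± 0.08 (SD, n = 4 each), and the tumor difference was 2.53 (standard error 0.62). It was 3.25 without NdpKO;Ptch+/- MB replicate 1. NdpKO;Ptch+/- MBs were at least 5.58-fold above GNPs, and above Ptch+/- MBs by the same bound once replicate 3 of the latter was left out. NdpKO;Ptch+/- MB replicate 1, the dimmest for *Plvap*, was not the dimmest for *Esm1*, for which replicate 4 was lowest.

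**Figure D1:**
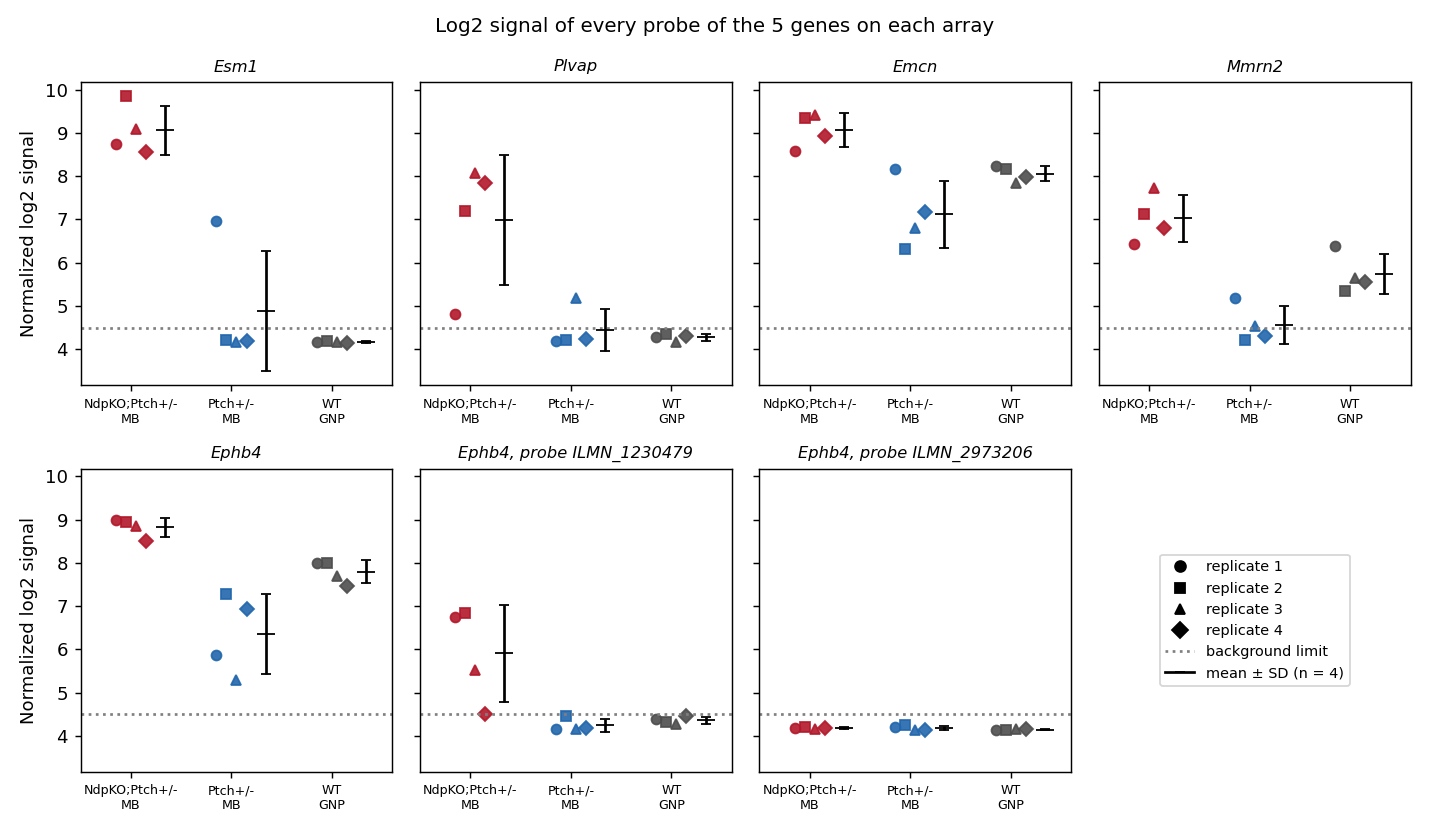
Normalized log2 signal (y axis) of all 7 probes of the 5 genes on each of the 12 arrays, by group (x axis), with marker shapes for replicate numbers, black bars for mean ± SD of 4 arrays, and the background limit of 4.5 drawn dotted. *Esm1* and *Plvap* lie under it in GNPs, while *Emcn*, *Mmrn2* and the bright *Ephb4* probe lie above it in GNPs and have their lowest means in Ptch+/- MBs.

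*Emcn*, *Mmrn2* and *Ephb4* had a different pattern, since all were above the limit in every GNP sample. Their means were highest in NdpKO;Ptch+/- MBs, intermediate in GNPs and lowest in Ptch+/- MBs.

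The *Emcn* probe ILMN_1259365 gave log2 signals of 8.57, 9.35, 9.41 and 8.93 in NdpKO;Ptch+/- MBs. It gave 8.16, 6.33, 6.80 and 7.17 in Ptch+/- MBs and 8.24, 8.17, 7.85 and 7.98 in GNPs. Every NdpKO;Ptch+/- MB was above every other array, and Ptch+/- MB replicate 1 lay within the range of GNPs while the other 3 Ptch+/- MBs lay below it. The means were 9.07 ± 0.39, 7.12 ± 0.78 and 8.06 ± 0.18 (SD, n = 4 each), and the tumor difference of 1.95 (standard error 0.35) corresponds to 3.86-fold.

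The *Mmrn2* probe ILMN_2761918 gave 6.44, 7.13, 7.73 and 6.80 in NdpKO;Ptch+/- MBs. It gave 5.17, 4.22, 4.53 and 4.31 in Ptch+/- MBs, where 2 arrays were under the limit, and 6.39, 5.34, 5.64 and 5.55 in GNPs. No groups overlapped, although the lowest NdpKO;Ptch+/- MB (6.44) and the highest GNP sample (6.39) differed by only 0.05. The means were 7.02 ± 0.55, 4.56 ± 0.43 and 5.73 ± 0.46, and the tumor difference was 2.47 (standard error 0.33).

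The brightest *Ephb4* probe, ILMN_2777884, gave 8.997, 8.95, 8.84 and 8.51 in NdpKO;Ptch+/- MBs, the smallest spread of a tumor group among the brightest probes of the 5 genes. It gave 5.88, 7.28, 5.30 and 6.95 in Ptch+/- MBs and 8.01, 8.01, 7.70 and 7.48 in GNPs. The 3 groups did not overlap, and Ptch+/- MBs spread from 5.30 to 7.28 with replicates 2 and 4 above replicates 1 and 3. The means were 8.83 ± 0.22, 6.35 ± 0.92 and 7.80 ± 0.26, and the tumor difference was 2.47 (standard error 0.39).

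The other probes of *Ephb4* did not repeat the GNP level. ILMN_1230479 gave 6.75, 6.85, 5.53 and 4.505 in NdpKO;Ptch+/- MBs, 4.16 to 4.47 in Ptch+/- MBs and 4.27 to 4.45 in GNPs. It was thus above the limit only in NdpKO;Ptch+/- MBs, where it was at least 2.65-fold higher than in either other group. ILMN_2973206 lay between 4.13 and 4.24 on all 12 arrays and measured nothing above background. The order of GNPs and Ptch+/- MBs for *Ephb4* therefore rests on 1 probe.

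Among the 5 genes, every NdpKO;Ptch+/- MB was above every Ptch+/- MB for 4, with *Plvap* as the exception, and 4.68% of all genes, or 7.42% of the 9648 that reached the limit on at least 1 array as all 5 did, had that order. Nothing is read from that count because this contrast chose the genes. Every NdpKO;Ptch+/- MB was above every GNP sample for all 5, against 12.7% of all genes and 21.1% of those that reached the limit. The differences from GNPs were 4.90 for *Esm1* and 2.71 for *Plvap*, fitted values against a group at background, and 1.01 for *Emcn*, 1.29 for *Mmrn2* and 1.03 for *Ephb4*. These use the same NdpKO;Ptch+/- arrays and likewise carry no test. Since MBs and GNP samples are mixtures of cells, more endothelial cells and more RNA per cell cannot be told apart in any of these values.

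**Figure D2:**
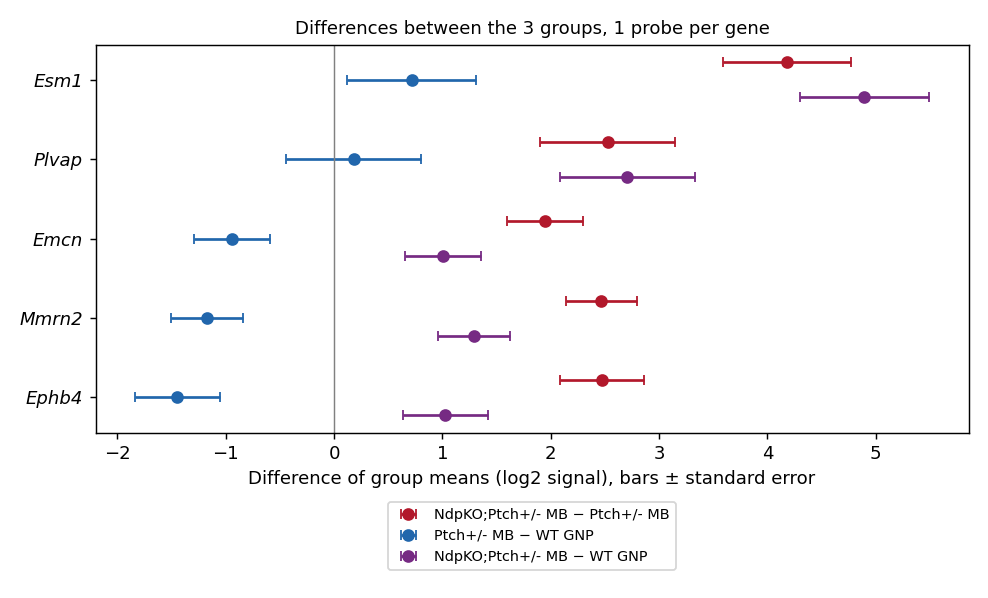
Differences between group means in log2 signal (x axis) for the brightest probe of each of the 5 genes (y axis), with bars of ± 1 standard error from limma over 12 arrays. NdpKO;Ptch+/- MBs exceed both other groups for all 5 genes, and Ptch+/- MBs lie below GNPs for *Emcn*, *Mmrn2* and *Ephb4*, by 0.94 to 1.44.

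The comparison of Ptch+/- MBs with GNPs asks how the same genes stand in tumors with *Ndp* intact. GNPs were enriched cells of P6 pups and MBs were tumor tissue from mice of unstated age. Tumor state, age and preparation therefore cannot be told apart in it. It was tested in limma over all 45281 probes, and it shares its Ptch+/- MB arrays with the contrast that chose the genes, so it is not independent of that choice. The choice took genes that were low in Ptch+/- MBs against the other tumors, which favours a fall here. The adjusted p-values of the 5 genes are therefore no independent support for a fall. *Mmrn2* and *Ephb4* fell and none of the 5 rose, while 10.9% of all genes fell and 10.3% rose, and nothing is read from that count. *Ephb4* was lower in Ptch+/- MBs by a log2 difference of -1.44 (standard error 0.39, adjusted p = 0.0304) and *Mmrn2* by -1.17 (standard error 0.33, adjusted p = 0.0365), and every GNP sample was above every Ptch+/- MB for both, an order that 14.6% of all genes and 22.9% of those at the limit had. *Emcn* did not pass, with a difference of -0.94 (standard error 0.35, adjusted p = 0.102). The *Esm1* and *Plvap* differences of 0.72 and 0.18 did not pass either (adjusted p = 0.490 and 0.893), and GNPs and 3 of 4 Ptch+/- MBs were at background for both. In the same comparison 6 of 11 measured leukocyte genes rose and none fell, with a median difference of 2.52, and their mean signal went from 5.12 to 5.46 in GNPs to 6.94 to 7.76 in Ptch+/- MBs, and the part of this in the falls of *Mmrn2* and *Ephb4* was not tested.

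These calls were near the threshold. *Emcn* passed without Ptch+/- MB replicate 1, at -1.29 (adjusted p = 0.00949). *Mmrn2* did not pass when Ptch+/- MB replicate 2, 3 or 4 (adjusted p = 0.0919, 0.0779 and 0.0810) or GNP replicate 1, 3 or 4 (0.0903, 0.0691 and 0.0627) was left out. *Ephb4* did not pass without Ptch+/- MB replicate 1 (0.0787) or GNP replicate 1, 2 or 3 (0.0769, 0.0764 and 0.0603), nor with its 3 probes averaged, which gave -0.51 (0.145), nor with Ptch+/- MBs and GNPs fitted alone (0.0864). With the replicate number as a block, neither *Mmrn2* (0.0699) nor *Ephb4* (0.0519) passed.

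To set the 5 genes against endothelium in general, an endothelial index was taken on each array as the mean log2 signal of the 9 genes, of a list of 25, that reached 4.5 on all 12 arrays (*Ets1*, *Egfl7*, *Ramp2*, *Esam*, *Ptprb*, *Sox18*, *Flt1*, *Robo4* and *Adgrl4*). The index was chosen after the values had been seen. It was 9.22, 9.15, 9.61 and 9.31 in NdpKO;Ptch+/- MBs, 9.001, 8.56, 8.55 and 8.74 in Ptch+/- MBs, and 8.65 to 8.89 in GNPs. Every NdpKO;Ptch+/- MB was again above every Ptch+/- MB, but by a mean of 0.61. After subtraction of the index, the tumor difference was 3.57 for *Esm1*, 1.92 for *Plvap*, 1.34 for *Emcn*, 1.86 for *Mmrn2* and 1.86 for *Ephb4*. The 5 genes were chosen for their difference in this contrast, so nothing is read from its being above that of the index. Some vessel genes outside the index, such as *Nid2* (2.16), *Gja4* (1.44) and *Cdh5* (1.08), were above it too. These are picked high values, since the median differences of general endothelial, sprouting and arterial genes were 0.60, 0.10 and 0.02. *Cdh5* did not pass (adjusted p = 0.235 in limma), and *Nid2* and *Cdh5* each reached the limit in only 1 Ptch+/- MB.

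*Sox18*, a transcription factor of endothelium, weighs on the index in the comparison with GNPs, since it rose by 3.83 in Ptch+/- MBs (adjusted p = 8.68e-06 in limma), from 8.03 to 11.86. With *Sox18* the index differed by -0.07 between Ptch+/- MBs and GNPs, and without it by -0.55. Relative to the 8 genes that remain, *Emcn* differed by -0.39, *Mmrn2* by -0.62 and *Ephb4* by -0.89, smaller than the -0.88, -1.11 and -1.38 with all 9 genes. The tumor differences relative to these 8 genes were 3.44, 1.79, 1.21, 1.73 and 1.74 for *Esm1*, *Plvap*, *Emcn*, *Mmrn2* and *Ephb4*.

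**Figure D3:**
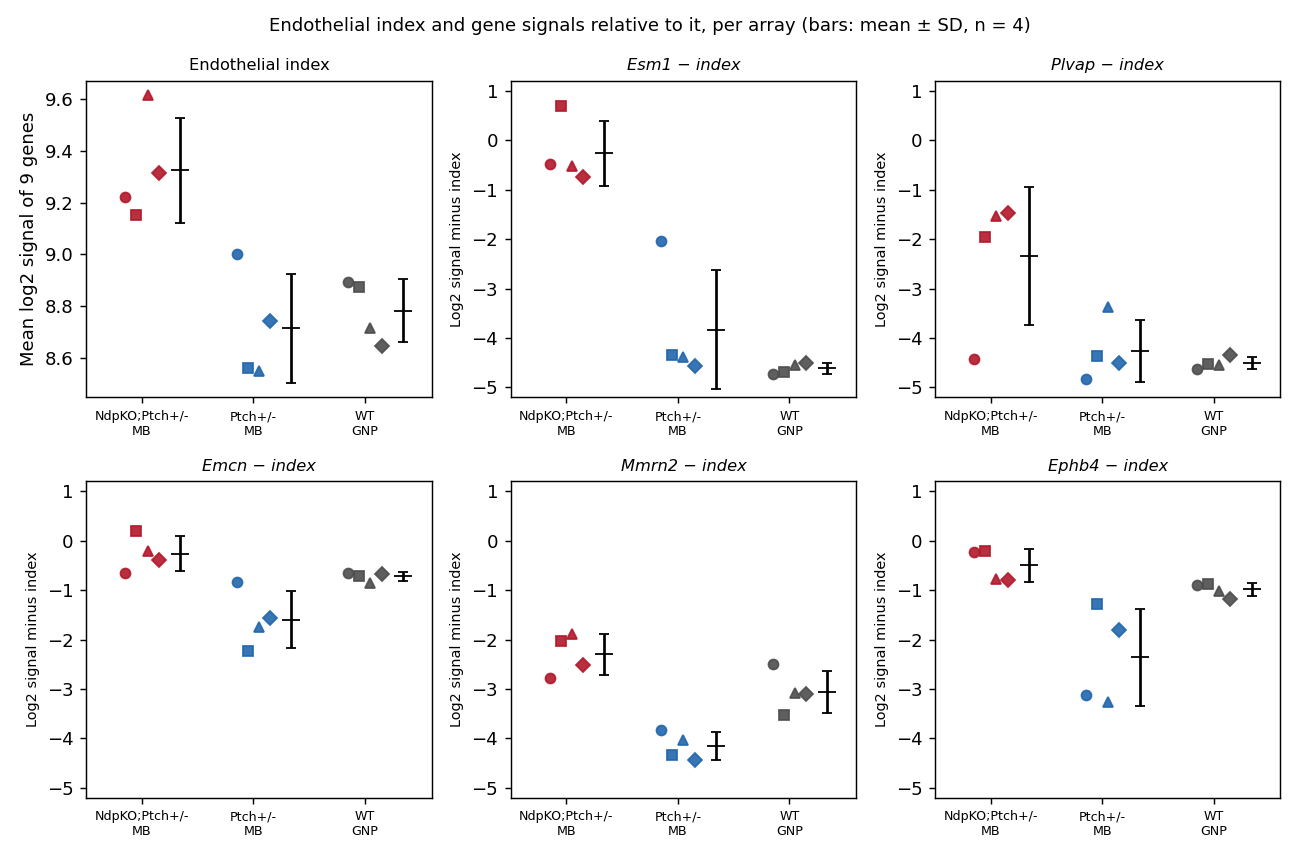
The endothelial index on each array (first panel, mean log2 signal of 9 genes) and the log2 signal of each of the 5 genes minus that index (other panels), by group, with marker shapes for replicate numbers and bars for the mean ± SD (n = 4). NdpKO;Ptch+/- MBs stay above Ptch+/- MBs after subtraction for *Esm1*, *Mmrn2*, *Ephb4* and *Emcn*, with *Plvap* in replicate 1 (-4.42) as the array that overlaps.

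The 5 profiles were compared as the mean absolute difference between pairs of genes over the 12 arrays, each gene centred on its own mean. *Emcn* and *Mmrn2* were the most alike at 0.31 log2 units, and *Emcn* with *Ephb4* (0.53) and *Mmrn2* with *Ephb4* (0.60) came next. *Esm1* stood farthest from the rest, at 1.197 from *Plvap* and 1.77 from *Ephb4*. The replicate orders also differed: NdpKO;Ptch+/- MB replicate 3 was highest for *Plvap*, *Emcn* and *Mmrn2*, replicate 2 for *Esm1* and replicate 1 for *Ephb4*.

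The same measure found the other genes with the nearest profiles. For *Emcn* these were *Acta2* (0.32), the actin of smooth muscle and pericytes, and the basement membrane collagens *Col4a1* (0.36) and *Col4a2* (0.38). For *Mmrn2* they were the sulfotransferase *Chst7* (0.41), the adhesion molecule *Mcam* of endothelium and pericytes (0.41) and *Acta2* (0.42). *Acta2* had group means, given here and below in the order NdpKO;Ptch+/- MB, Ptch+/- MB and GNP, of 9.77, 8.17 and 9.37, and *Col4a1* 11.26, 10.10 and 10.52, which is the order of *Emcn*. For *Ephb4* they were *Bcl2l12* (0.31), the annexin *Anxa6* (0.39) and the purinergic receptor *P2ry1* (0.48). For *Esm1* the nearest were *Cdh15* (0.71) and *Myod1* (0.90), known from skeletal muscle, and *Glycam1* (0.95), and for *Plvap* the potassium channel *Kcnj12* (0.44), the neuropeptide *Npy* (0.55) and the galanin receptor *Galr1* (0.56). Arrays are shared by all of these profiles, and nearness says only that the values move alike over 12 arrays.

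Binding partners and relatives of the 5 proteins were read from fixed lists. Of 14 partners and associated genes, none passed between tumor genotypes in limma, and 2 were higher at an unadjusted p under 0.05, against 8.52% of all genes. *Cd93*, the endothelial receptor that binds multimerin 2, had means of 8.71 ± 0.36, 7.58 ± 0.50 and 8.56 ± 0.31 (SD, n = 4 each), a tumor difference of 1.13 (standard error 0.27, adjusted p = 0.0923). *Cd248*, a pericyte and fibroblast glycoprotein of the same receptor group, had 7.71, 6.29 and 7.64 (difference 1.42, adjusted p = 0.197). Both had the order of group means seen for *Emcn*, *Mmrn2* and *Ephb4*, and between Ptch+/- MBs and GNPs *Cd93* fell by 0.98 (adjusted p = 0.0346). *Clec14a*, a further multimerin 2 receptor, and *Kdr*, the main VEGF receptor of endothelium, were at background on all arrays. *Vegfa*, the ligand that endocan binds, had 9.997, 9.64 and 9.17, and *Cav1*, the caveolin of the vesicles that carry PLVAP, 9.15, 9.05 and 9.07, and neither passed (tumor differences 0.36 and 0.10).

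*Efnb2*, the ligand of EphB4 and a mark of arteries, was at background in both tumor genotypes (4.22 and 4.19) and reached 5.38 ± 0.64 in GNPs, a fall in Ptch+/- MBs with an adjusted p of 0.0104. Of the 6 measured EphB receptors and ephrin-B ligands of a list of 7, none passed between tumor genotypes at either the adjusted or the unadjusted threshold of 0.05. *Ephb1*, a neuronal receptor of the family, was bright in all groups (9.84, 9.52 and 10.68) and *Ephb3* was at background. Of the 6, 3 were under the limit on all arrays and *Efnb2* was at background in both tumor genotypes, so few of them could show a tumor difference. The tumor difference of *Ephb4* was not seen in the relatives above background, though the difference between relatives was not tested. Among the EMILIN and multimerin genes, *Mmrn1* was at background, *Emilin1* had means of 5.88, 6.05 and 5.43, and *Emilin2* passed with a difference of -0.04 while staying under the limit on every array. Among the CD34 family sialomucins none passed in limma and 3 of 3 had an unadjusted p under 0.05, where 8.52% of all genes were higher and 7.91% lower: *Podxl*, or podocalyxin, was higher by 0.96 (adjusted p = 0.203), *Cd34* by 0.33 (0.168), and *Podxl2* was lower by 0.74 (0.0683).

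Other endothelial genes were tested between the tumor genotypes with the 5 left out of every list, where 0.808% of all genes rose and 1.26% fell, and 8.52% were higher and 7.91% lower at an unadjusted p under 0.05. Of 25 genes of general endothelium, 3 rose in NdpKO;Ptch+/- MBs and none fell, with a median difference of 0.60 against 0.0007 over all genes, and 12 were higher at an unadjusted p under 0.05. The 3 were *Adgrl4*, an adhesion receptor of endothelium (1.23, adjusted p = 0.0214), *Robo4*, a guidance receptor that keeps vessels stable (0.94, 0.0461), and *Ramp2*, the partner of the adrenomedullin receptor (0.72, 0.0192). *Pecam1* (CD31) had means of 5.09, 4.40 and 6.16 and *Cdh5* (VE-cadherin) 5.58, 4.497 and 6.24, and the tumor differences of 0.69 and 1.08 did not pass (adjusted p = 0.607 and 0.235). Between Ptch+/- MBs and GNPs, where 10.9% of all genes fell and 10.3% rose, 9 of the 25 fell, among them *Pecam1* (-1.76, adjusted p = 0.0263) and *Cdh5* (-1.74, 0.0104), and only *Sox18* rose.

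Genes of vessel sprouting and of arteries were set against the 0.808% of all genes that rose between tumor genotypes. At an unadjusted p under 0.05, 8.52% of all genes were higher. In each of the 2 lists 8 genes were under the limit on all arrays, so their probes could show no difference. Of 21 sprouting genes 2 rose, *Robo4* and the basement membrane nidogen *Nid2* (means 6.74 and 4.58, difference 2.16, adjusted p = 0.0277), none fell, the median difference was 0.10, and 6 were higher at the unadjusted threshold. *Angpt2*, which endothelial tip cells secrete, had means of 8.24, 7.50 and 7.05 and did not pass (0.74, adjusted p = 0.188). Of 19 arterial genes 2 rose, *Notch4*, an endothelial Notch receptor (0.66, adjusted p = 0.0164), and *Gja4*, or connexin 37 (1.44, 0.0422), and none fell. The arterial median was 0.02, 11 of the 19 differences were above 0, and 2 genes were higher at the unadjusted threshold.

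*Ephb4* and *Emcn* are known from veins, and a list of 11 other venous genes was read beside them. None of the 11 rose and 4 fell in NdpKO;Ptch+/- MBs, against 0.808% and 1.26% of all genes. Of the 11, 5 were lower at an unadjusted p under 0.05 (7.91% of all genes), 4 were under the limit on all arrays, and the median was -0.03. The 4 that fell were *Slc38a5*, a glutamine transporter (-2.52, adjusted p = 0.0169), *Vcam1* and *Icam1*, adhesion molecules for leukocytes that inflammation induces and that other cells also express (-1.88, 0.00424, and -1.84, 0.0168), and *Vwf*, the von Willebrand factor of clotting (-0.998, 0.0212). *Vcam1* gave 8.26, 8.66, 8.28 and 8.59 in NdpKO;Ptch+/- MBs and 9.76, 10.69, 10.60 and 10.28 in Ptch+/- MBs, without overlap. *Nr2f2*, the transcription factor of vein identity, was near background (4.72, 4.52 and 4.29) and did not pass (0.20, adjusted p = 0.870).

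Among 17 measured genes of blood-brain barrier endothelium, 1 rose and 2 fell, against 0.808% and 1.26% of all genes. Of the 17, 6 were under the limit on all arrays, and the median difference was -0.0003. At an unadjusted p under 0.05, 2 were higher and 3 lower, against 8.52% and 7.91% of all genes. *Itm2a*, a membrane protein of brain endothelium, rose by 0.90 (adjusted p = 0.0422), and the transporter *Slco1c1* fell by 2.80 (0.0169) and the transferrin receptor *Tfrc* by 1.196 (0.0386). For *Slco1c1* every NdpKO;Ptch+/- MB but replicate 1 (6.21) was at 4.21 or lower, so its difference is a fitted value against arrays mostly at background. The tight junction gene *Cldn5* had means of 9.90 and 9.91 in the tumor genotypes. *Plvap* is known to be low where this program is on, and among these genes only *Slco1c1* and *Tfrc* passed in the direction opposite to *Plvap*.

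The list calls between tumor genotypes depended on the arrays in the fit. With the tumor arrays alone, no list gene passed, against 16 genes over all lists with GNPs in the fit. *Vcam1*, *Icam1*, *Slc38a5*, *Slco1c1* and *Notch4* passed whichever single array was left out. *Ramp2* was lost without NdpKO;Ptch+/- MB replicate 2 (adjusted p = 0.0566) or Ptch+/- MB replicate 3 (0.0514), and *Adgrl4* without NdpKO;Ptch+/- MB replicate 2 (0.0530) or 3 (0.0565). *Vwf* passed in 8 of the 12 fits that left out an array, *Nid2* in 5, *Robo4* in 2, *Gja4* in 2, *Itm2a* in 2 and *Tfrc* in 2.

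**Figure D4:**
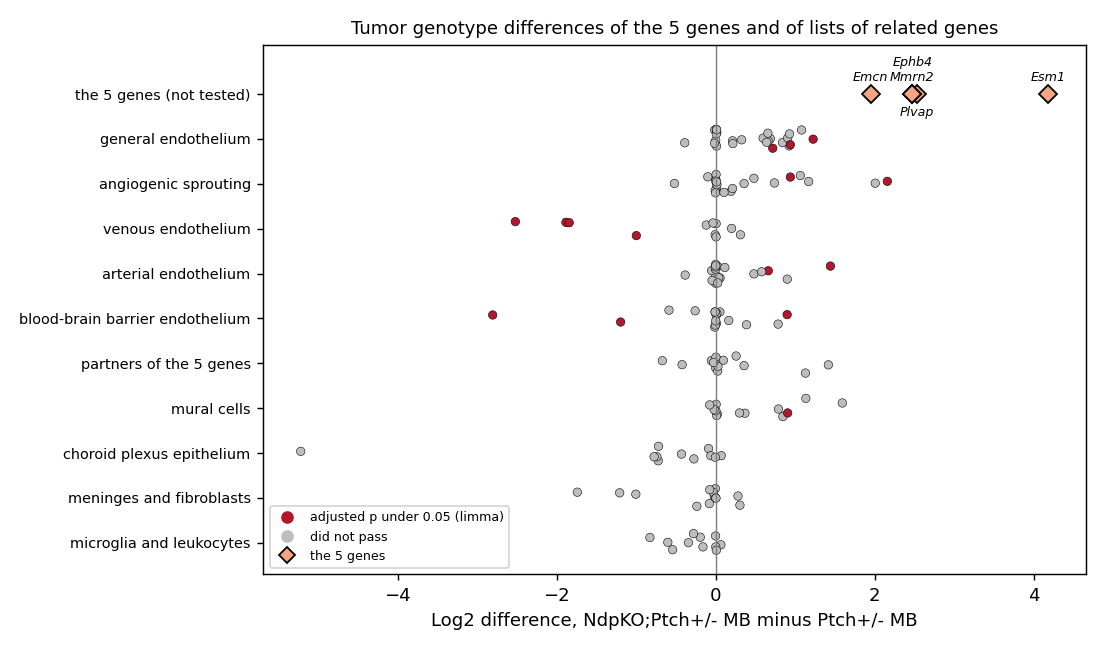
Log2 difference between NdpKO;Ptch+/- MBs and Ptch+/- MBs (x axis) for the 5 genes and for each measured gene of 10 lists (y axis, 1 probe per gene), with red points for adjusted p under 0.05 in limma. General endothelial genes lie around a median of 0.60, the called venous genes lie between -2.52 and -0.998, and the 5 genes, which were not tested here, lie between 1.95 and 4.18.

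Markers of other cells also differed between the groups, and their part in the values of the 5 genes was not tested. Of 13 measured mural cell genes 1 rose and none fell in NdpKO;Ptch+/- MBs, against 0.808% and 1.26% of all genes. At an unadjusted p under 0.05, 6 were higher and 1 was lower, against 8.52% and 7.91% of all genes. The gene that rose was *Vtn* (0.90, adjusted p = 0.0427 in limma), which was lost in 11 of 12 fits that left out an array. The mean mural signal was 5.48 to 5.79 in NdpKO;Ptch+/- MBs, 5.05 to 5.33 in Ptch+/- MBs and 5.17 to 5.39 in GNPs, with *Pdgfrb*, *Myh11* and *Tagln* at background. For the 25 general endothelial genes the same mean was 6.20 to 6.69, 5.79 to 6.14 and 6.32 to 6.66, with 8 genes under the limit on all arrays, *Kdr* and *Tie1* among them. Of the red blood cell genes, the globins *Hba-a1* and *Hbb-b1* had a mean of 10.3 to 12.8 in NdpKO;Ptch+/- MBs, 6.31 to 10.7 in Ptch+/- MBs and 11.3 to 13.2 in GNPs, and none of 4 measured genes passed between tumor genotypes (2 higher at an unadjusted p under 0.05). Among NdpKO;Ptch+/- MBs the globin mean was 10.3, 11.2, 12.8 and 11.4 in replicates 1 to 4, which is the order of *Plvap* on these arrays, and its lowest and highest arrays were also the lowest and highest for *Emcn* and *Mmrn2* but not for *Esm1* or *Ephb4*. Among Ptch+/- MBs it was 7.20, 10.4, 10.7 and 6.31, and the array with the highest globin had the highest *Plvap*, while replicate 1 had the highest *Esm1*, *Emcn* and *Mmrn2*.

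None of 11 choroid plexus, 13 meningeal or 11 leukocyte genes passed between tumor genotypes. At an unadjusted p under 0.05, 1, 3 and 3 of them were lower and none higher, against 7.91% and 8.52% of all genes. The mean choroid plexus signal was 5.14 to 6.01 in NdpKO;Ptch+/- MBs and 5.02 to 7.42 in Ptch+/- MBs, with means of *Kl*, *Aqp1* and *Sostdc1* under the limit in the former, and it was highest in Ptch+/- MB replicate 1, the array in which *Esm1* was detected. The mean meningeal signal was 6.14 to 6.55 and 6.33 to 7.04, and the mean leukocyte signal 6.88 to 7.28 and 6.94 to 7.76, so the tumor groups overlapped for both. In GNPs the choroid plexus, meningeal and leukocyte signals were 5.503 to 5.87, 6.88 to 7.21 and 5.12 to 5.46. Between Ptch+/- MBs and GNPs, where 10.3% of all genes rose and 10.9% fell, 1 of the 11 choroid plexus genes rose. Of the 13 meningeal genes 3 rose and 5 fell, and of the 4 measured red blood cell genes 2 fell.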

How the data were processed

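RNA of 4 NdpKO;Ptch+/- MBs, 4 Ptch+/- MBs and 4 wild-type GNP samples was hybridised to Illumina mouse whole-genome bead arrays, 1 array per sample. The deposited table holds normalized log2 signals. The authors exported them from BeadStudio and ran neqc of limma, a step that takes background from negative controls, adds a constant (default 16) before the log and equalizes quantiles between arrays. Their limma version is not given in the sources used here. Quantile normalization hides any difference in general level between arrays, and low signals are compressed toward the floor, so folds of dim genes are understated. The number of arrays limits the precision.

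Everything else was computed in R 4.3.3 with limma 3.58.1. One linear model with a mean per group, no covariates and all 12 arrays was fitted with lmFit and moderated with eBayes, with Benjamini-Hochberg adjustment over 45281 probes and a threshold of 0.05. Of these probes 34885 had 1 gene symbol, 18 several and 10378 none, and the brightest probe by mean signal stood for each gene. The genes, the lists, the background limit of 4.5 and the tests were chosen with earlier results of these data known. Named genes were all probes of the 5 genes, the 3 nearest profiles of each, genes of the partner and family lists, up to 4 genes with the smallest p of each other list, and *Pecam1*, *Cdh5*, *Cldn5*, *Ndp*, *Fzd4*, *Angpt2* and *Ttr* as defining genes. The genes of the endothelial index, *Tek*, *Tie1*, *Sox7*, *Nr2f2*, *Zic1*, *Atoh1*, *Gli1*, *Mycn*, *Pdgfrb*, *Myh11*, *Tagln*, *Kl*, *Aqp1* and *Sostdc1* are named beyond that rule where a count, an index or a marker list turned on them, with values known.

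Settings tried beside this were quantile normalization repeated, centring on the median of bright probes, removal of probes under 4.5 on all arrays, a robust prior with an intensity trend, weights per array, the compared groups alone, the replicate number as a block, the mean of a gene's probes, each array left out, and, added after seeing the data, values relative to the endothelial index with and without *Sox18*. The model was tested on simulated data. GNPs of other genotypes were not analysed here.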

Additional observations from a re-analysis of the deposited data

Results flagged for a closer look

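Single arrays stood apart from the other 3 of their group in 17 of 145 groups of 4 tested over 54 named genes, by a gap between the extreme array and its neighbour too large a part of the group's range for Dixon's criterion. Chance flags about 1 group in 20 where values are independent and normal. Here many values are compressed at the floor and the genes share arrays, so the 17 are not set against that rate. The part of tissue composition in these values was not tested.

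Of the 5 genes, *Esm1* was far above the others in Ptch+/- MB replicate 1 (6.97, with the next at 4.22) and *Plvap* in Ptch+/- MB replicate 3 (5.18, with the next at 4.25). Ptch+/- MB replicate 1 was also the high array of its group for *Pecam1* (4.83), *Cdh5* (5.16), *Nid2* (5.41), *Mcam* (4.67) and *Gja4* (5.17), all genes of vessels. Ptch+/- MB replicate 3 was the high array for *Npy* (8.07), and Ptch+/- MB replicate 4 for *Emilin1* (7.17) and *P2ry1* (5.60).

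NdpKO;Ptch+/- MB replicate 1, in which *Plvap* was lowest, was the low array of its group for *Gja4* (5.17) and the high one for the transporter *Slco1c1* (6.21, with the next at 4.21) and for *Ttr* (11.19, with the next at 5.33), the transthyretin of choroid plexus. NdpKO;Ptch+/- MB replicate 3 was high for *Cd93* (9.25), and NdpKO;Ptch+/- MB replicate 4 for *Podxl* (6.86). In GNPs, replicate 4 was low for *Tek* (7.02) and replicate 3 for *Anxa6* (9.63).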

How the results depend on the processing

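The differences of the 5 genes between tumor genotypes kept their direction under every alternative run. Leaving out 1 array at a time gave 3.92 to 4.88 for *Esm1*, 2.16 to 3.25 for *Plvap*, 1.69 to 2.30 for *Emcn*, 2.23 to 2.67 for *Mmrn2* and 2.12 to 2.78 for *Ephb4*. Values that moved beyond the replicate spread were *Mmrn2* relative to the endothelial index (1.86, and 1.73 without *Sox18* in the index) and *Ephb4* as the mean of its 3 probes (1.38), 1 of which never left background. Between Ptch+/- MBs and GNPs the adjusted p of *Mmrn2* ran from 0.0103 to 0.0919 and passed in 13 of 20 alternatives, with differences of -1.38 to -0.95 when 1 array was left out. That of *Ephb4* ran from 0.00796 to 0.145 and passed in 13 of 20, with -1.76 to -1.09, and was lost with those groups alone (-1.44, 0.0864) and as the mean of its probes (-0.51, 0.145). *Emcn* passed in 3 of 20, with dim probes left out (-0.94, 0.0374), with the intensity trend (-0.94, 0.0490) and without 1 array, where differences were -1.29 to -0.68. Replicate numbers do not pair the samples: deviations of same-numbered arrays correlated at -0.21 to 0.14 over 12 pairs, 1 of them above 0.1. With the number as a block, *Mmrn2* (-1.17, adjusted p = 0.0699) and *Ephb4* (-1.44, 0.0519) did not pass, 223 probes were called between tumor genotypes and 4 list genes. The 624 probes called between tumor genotypes became 1187 with dim probes left out, 1051 with the intensity trend, 64 with the tumors alone and 358 to 623 without 1 array, and the 16 list genes became 25, 25, 0 and 7 to 17. Between NdpKO;Ptch+/- MBs and GNPs 5614 probes were called, and 19556 after median centring, where 16.5% of calls were higher against 46.7%; between Ptch+/- MBs and GNPs centring moved the higher share from 47.1% to 31.9%. Centring shifted group medians of bright probes by less than 0.01, and the cause of the added calls was not tested. Of 400 pairs of a named list gene and an alternative, 287 kept their side of the threshold, 102 lost the call, 11 gained it and none reversed. Of 320 list counts, 88 moved by over 1.5 times.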

Other observations

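Endothelial receptors with little or no detected signal in both tumor genotypes included *Kdr*, *Tie1*, *Fzd4* and *Clec14a*, whose probes stayed under 4.5 on all 12 arrays, so the 5 genes were measured beside endothelial genes for which these probes gave no information. *Sox7*, a transcription factor of endothelium related to *Sox18*, moved opposite to it between GNPs and Ptch+/- MBs: *Sox7* fell by 4.59, from 8.87 to 4.28, while *Sox18* rose by 3.83. Neither passed between tumor genotypes (*Sox7* 0.66, *Sox18* -0.39, adjusted p = 0.360 and 0.584 in limma). *Sox7* and *Tie1* were named after their values were seen.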
